A study of Mus musculus with 2 samples.

Results

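The mitochondrial genome was represented by 37 genes, chosen as every gene whose symbol in the posterior table begins with mt-, out of 53055 genes present in both deposited tables. They comprise 13 messenger RNAs, 2 ribosomal RNAs and 22 transfer RNAs, and all 37 were found in both tables. Polyadenylated RNA was measured in 2 libraries of brain tissue, both labelled wild type, male, C57BL/6J and 14 weeks old. The tissue for the first library was taken at a position matched to anterior MERFISH slices, and the tissue for the second at a position matched to posterior ones. Each position had 1 library, so no p-value can be given, and tissue position, library and quantification pipeline cannot be told apart. The labels place the tissue by position alone and name no dissected region or cell type. The sources used here do not say whether a sample was pooled from several animals.

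Mitochondrial DNA is a small circle that is transcribed from both strands into long polycistronic RNAs. Transfer RNAs lie between most of the other genes, and their excision frees the messenger and ribosomal RNAs, after which most messenger RNAs gain a poly(A) tail. The messenger RNAs encode core subunits of respiratory complexes I, III and IV and of ATP synthase, while the ribosomal and transfer RNAs serve the organelle's own translation. Neurons rely heavily on this machinery for ATP. Copies of mitochondrial DNA have also been inserted into nuclear chromosomes, where they are annotated as pseudogenes.

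Levels are given as FPKM, fragments per kilobase of gene scaled to the size of the library. Anterior FPKM are the authors' values, scaled to gene length. Posterior FPKM were computed here from the deposited estimated counts and effective lengths, the lengths left after allowing for fragment size. The anterior library held 43558839 fragments in genes and the posterior library 147138183, 3.38 times as many. Differences between libraries are ratios of fragment shares: the fragments of a gene over all fragments in nuclear protein-coding genes of that library. They use no gene length. Their 95% intervals reflect only the error of counting fragments, with 1 library per position and so no spread between samples. The libraries carried no molecular identifiers, so 2 fragments may stem from 1 molecule and the intervals may be too narrow. They also leave out the error of dividing estimated counts between identical sequences. The labelled tissue was borne out by 16 markers of neurons, astrocytes, oligodendrocytes, microglia and endothelium, which ranged from 3.90 to 533 anterior FPKM and from 6.73 to 1554 posterior FPKM. Alb, Ckm and Myh6, markers of liver, skeletal muscle and heart, did not exceed 0.399 FPKM.

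All coordinates refer to build mm10, and sequences are GENCODE M21 transcripts of the same assembly, GRCm38, in the sense of the gene. Of the 37 genes, 28 are annotated on the plus strand, transcribed from the heavy-strand promoters, and 9 on the minus strand, transcribed from the light-strand promoter. The minus-strand set holds 8 transfer RNAs and a single messenger RNA, mt-Nd6. The sequences differ in 3 features that are set beside the values. The first is the 3′ end, since the libraries were made from polyadenylated RNA. Of the 13 messenger RNAs, mt-Co3, mt-Nd4 and mt-Cytb stop at the first base of a stop codon, which polyadenylation completes in mammals. The last 15 bases of these and, for comparison, of mt-Co1 and mt-Nd6 are printed with the stop codon, or the part of it that is encoded, in capitals.
mt-Co3: attgatgaggatctT
mt-Nd4: caggcctgacaataT
mt-Cytb: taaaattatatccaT
mt-Co1: gtaaaagtaaaaTAA
mt-Nd6: attactcgagatTAA

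The second feature is overlap between neighbours. The reading frames of mt-Atp8 and mt-Atp6 share 43 bases, those of mt-Nd4l and mt-Nd4 share 7, and each pair stays together on a bicistronic messenger RNA. The ends of the upstream genes are printed with the start codon of the downstream gene in capitals. A further 14 bases are shared by mt-Nd5 and mt-Nd6, which lie on opposite strands.
mt-Atp8: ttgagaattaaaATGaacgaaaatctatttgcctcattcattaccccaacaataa
mt-Nd4l: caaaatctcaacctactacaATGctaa

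The third feature is a stretch of chromosome 1, from 24611535 to 24616197, that carries 7 unprocessed pseudogenes on the minus strand. Between 97.2% and 100% of their 31-base words occur in mitochondrial genes. In mitochondrial order they hold the end of mt-Co1 (Gm29216), mt-Co2 (Gm28661), mt-Atp6 (Gm10925), mt-Co3 (Gm28437), mt-Nd3 (Gm28438), mt-Nd4l (Gm10222) and the first 876 bases of mt-Nd4 (Gm28439). Of these copies, 5 had 0 substitutions over their whole length against the mitochondrial gene. The first 60 bases of mt-Co2 show what such identity looks like. Gm28438 differed from mt-Nd3 by T3C, and Gm29216 from mt-Co1 by T1056A, C1057T, A1059G, A1060G, C1062A and A1066T, all at the edge of that copy. Positions are counted from the first base of the mitochondrial gene, and the substituted bases are in capitals.
mt-Co2: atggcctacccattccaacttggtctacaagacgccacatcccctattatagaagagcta
Gm28661: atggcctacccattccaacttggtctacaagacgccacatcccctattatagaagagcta
mt-Nd3: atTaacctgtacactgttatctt
Gm28438: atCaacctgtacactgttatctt
mt-Co1, bases 1054 to 1086: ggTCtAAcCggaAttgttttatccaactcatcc
Gm29216: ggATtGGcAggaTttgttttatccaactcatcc

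The spacing of the copies followed the mitochondrial genome. Once the last bases of each gene that its copy leaves out were allowed for, 5 of the 6 gaps between neighbouring copies equalled the mitochondrial gaps, and the gap between the copies of mt-Nd3 and mt-Nd4l was longer by 1 base. The gap between Gm28661 and Gm10925 measured 233 bases, where mt-Atp8 and mt-Tk lie in the mitochondrial genome, and holds no copy of mt-Atp8 annotated as a transcript. The genome sequence of that gap was not analysed here. The reads were 150 bases long per the labels, so sharing was also measured in windows of that length. The share of a gene's windows found unchanged in transcripts of nuclear genes was 99.8% for mt-Co3, 99.4% for mt-Co2, 99.4% for mt-Atp6, 98.0% for mt-Nd4l and 97.0% for mt-Nd3. It was 59.2% for mt-Nd4 and 23.6% for mt-Co1. It was 0% for mt-Nd1, mt-Nd2, mt-Nd5, mt-Nd6, mt-Cytb, both ribosomal RNAs and, among annotated transcripts, mt-Atp8. Transfer RNAs are too short to hold such a window.

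The ribosomal RNAs, which form the small and large subunits of the mitochondrial ribosome, stood at nearly equal levels in both libraries. The 12S RNA mt-Rnr1 (MT, 70 to 1024) had an FPKM of 2771 (anterior) and 3206 (posterior). Its fragment share was 1.04 times the anterior value in the posterior library (95% interval 1.03 to 1.05). The 16S RNA mt-Rnr2 (MT, 1094 to 2675) had 2388 and 2462 FPKM, a share ratio of 1.08 (1.08 to 1.09). The level of mt-Rnr1 was 1.16 times that of mt-Rnr2 among anterior FPKM and 1.30 times among posterior FPKM, or 1.11 times with annotated length. Both ribosomal RNAs together took 0.539% of all anterior and 0.533% of all posterior fragments (95% Wilson intervals 0.536 to 0.541 and 0.532 to 0.534). In mammals these RNAs carry at most short adenine tails, so their share in libraries of polyadenylated RNA is not their share of cellular RNA.

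Of the 13 messenger RNAs, 6 passed a 2-fold difference in fragment share towards the posterior library and 1 towards the anterior library. Among 13339 protein-coding genes that reached an FPKM of 1 in at least 1 library, 8.44% and 1.81% did so, with shares as CPM and a pseudocount of 0.5. Among 16286 genes of all biotypes it was 10.3% and 5.81%. All of the 6 were more than 16-fold higher, a size reached by 1.09% of the 13339 genes. The median log2 share ratio of the 13 was 0.71, against 0.015 over all genes tested. That median is the value of mt-Nd4, since 6 of the 13 lie far above it, and it does not describe the set. For mt-Nd1, mt-Nd2, mt-Nd5, mt-Nd6 and mt-Cytb the ratios ran from 0.0869 to 0.804, with a median of 0.787. The 6 higher in the posterior library are mt-Co2, mt-Atp8, mt-Atp6, mt-Co3, mt-Nd3 and mt-Nd4l, which are neighbours on the genome. They are the 5 messenger RNAs with at least 97.0% of windows shared with the nucleus, and mt-Atp8, which lies between a pair of them. The part that the nuclear copies play in these ratios was not tested. In bulk tissue, fewer cells of a type and less RNA per cell cannot be told apart.

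**Figure D1:**
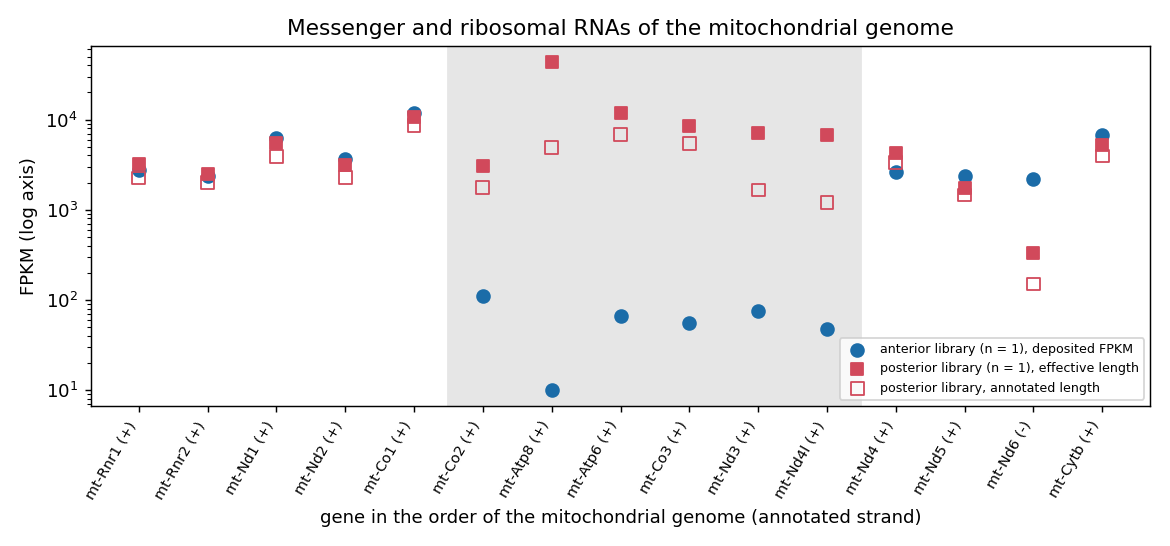
FPKM (log axis) of the 13 messenger and 2 ribosomal RNAs in genome order, with the annotated strand in brackets. Filled circles are the anterior library, filled squares the posterior library by effective length and open squares the posterior library by annotated length, 1 library each; the shaded block holds the 6 genes that lie between 10.1 and 109 FPKM in the anterior library and between 3057 and 43209 by effective length in the posterior library.

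Complex I, the NADH dehydrogenase that feeds electrons into the chain, takes 7 of the messenger RNAs, and these fell into 3 patterns. mt-Nd1 (MT, 2751 to 3707) had an FPKM of 6316 (anterior) and 5536 (posterior), a share ratio of 0.787 (0.783 to 0.791). mt-Nd2 (MT, 3914 to 4951) had 3643 and 3156, a ratio of 0.804 (0.799 to 0.809). mt-Nd5 (MT, 11742 to 13565), the longest messenger RNA, had 2355 and 1733, a ratio of 0.795 (0.791 to 0.800). These 3 membrane-arm subunits thus kept the same order in both libraries and were all somewhat lower in the posterior library. mt-Nd4 (MT, 10167 to 11544), another membrane-arm subunit, went the other way with 2648 and 4250 FPKM, a ratio of 1.63 (1.62 to 1.64). mt-Nd3 (MT, 9459 to 9806) had 75.5 FPKM from 959 anterior fragments and 7114 FPKM from 84500 posterior fragments, a ratio of 28.1 (26.3 to 29.9). mt-Nd4l (MT, 9877 to 10173) had 47.9 and 6664 FPKM, from 520 and 52495 fragments, a ratio of 32.1 (29.5 to 35.1).

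mt-Nd6 (MT, 13552 to 14070), the remaining complex I subunit and the messenger RNA of the light-strand promoter, was the exception in the opposite direction. Its 41901 anterior and 11428 posterior fragments gave 2211 and 334 FPKM. The anterior share exceeded the posterior share 11.5-fold (11.3 to 11.8). Its FPKM was 0.939 of that of its neighbour mt-Nd5 among anterior values and 0.193 among posterior values. In the anterior library mt-Nd6 lay below mt-Nd1, mt-Nd2, mt-Nd4 and mt-Nd5, the last of these at 2355 FPKM, and above mt-Nd3 and mt-Nd4l. In the posterior library it lay below all 12 other messenger RNAs. No window of mt-Nd6 is shared with annotated nuclear transcripts. In human cells the ND6 messenger RNA is known to lack a poly(A) tail. RNA of the opposite strand runs through the gene from the heavy-strand promoter, and the sources used here do not say whether anterior counting used strand. The part that strand assignment plays in this difference was not tested.

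Complex III, which passes electrons from ubiquinol to cytochrome c, has cytochrome b as its only mitochondrial subunit. mt-Cytb (MT, 14145 to 15288) had 6686 and 5270 FPKM from 279326 and 664487 fragments, a ratio of 0.758 (0.754 to 0.761). Among messenger RNAs it ranked second by anterior FPKM and eighth by posterior FPKM.

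Complex IV, cytochrome c oxidase, reduces oxygen to water. Its catalytic subunit mt-Co1 (MT, 5328 to 6872) was the most abundant messenger RNA of the anterior library at 11960 FPKM, and its posterior level was 10659. With 674842 and 1972898 fragments it supplied 35.7% and 27.5% of all fragments in the 37 genes, and its share ratio was 0.931 (0.928 to 0.934). The other 2 core subunits did not follow it. mt-Co2 (MT, 7013 to 7696), which receives electrons from cytochrome c, had 109 and 3057 FPKM, a ratio of 20.8 (20.04 to 21.6). mt-Co3 (MT, 8607 to 9390) had 54.7 and 8583 FPKM, from 1566 and 627599 fragments, a ratio of 128 (121 to 134). Per length, the level of mt-Co1 was 219 times that of mt-Co3 among anterior values and 1.24 times among posterior values.

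ATP synthase takes 2 messenger RNAs, and both had large ratios. mt-Atp6 (MT, 7927 to 8607), the subunit that lines the proton channel, had 1629 and 690141 fragments and 65.5 and 11903 FPKM, a ratio of 135 (129 to 142). mt-Atp8 (MT, 7766 to 7969), a small subunit of the stator, had 75 and 145923 fragments and 10.1 and 43209 FPKM, a ratio of 620 (494 to 788). The posterior FPKM of mt-Atp8 rests on an effective length of 22.95 bases for a gene of 204. By annotated length it was 4861, 0.706 of mt-Atp6 in place of 3.63 times. Complex V supplied 0.103% of the anterior and 13.1% of the posterior messenger RNA fragments, whereas complex I supplied 41.9% and 33.1%.

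**Figure D2:**
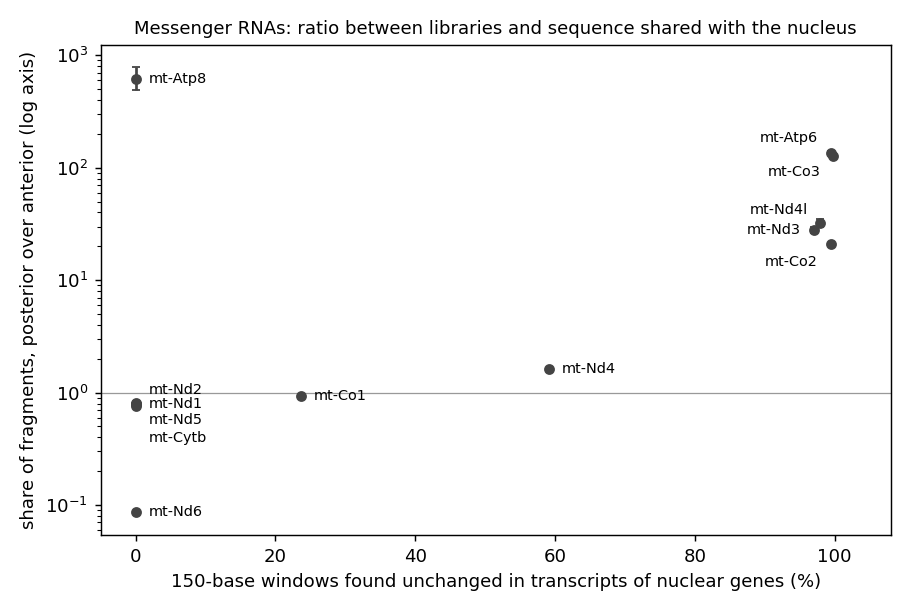
Ratio of fragment shares, posterior over anterior (log axis, 1 library each, bars are 95% counting intervals), against the percentage of 150-base windows of each messenger RNA found unchanged in transcripts of nuclear genes. The 5 genes with at least 97.0% of windows shared lie between 20.8 and 135, mt-Atp8 stands apart at 620 with 0% shared with annotated transcripts, and mt-Nd6 is lowest at 0.0869.

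The fragments given to the copies differed between libraries as well. Gm28661 held 1676 anterior and 565989 posterior fragments, which is 38.0% and 76.0% of the pair it forms with mt-Co2. Gm10925 went the other way, with 2796 and 1552 fragments, or 63.2% and 0.224% of its pair with mt-Atp6. Both copies are identical to their gene over the whole copy, so a fragment inside them carries no base that tells copy and gene apart. Gm28437 held 46.8% of the anterior and 8.29% of the posterior fragments of its pair with mt-Co3. Gm10222 had 263 and 0 fragments, Gm28439 had 1158 and 0, and Gm28438 had 131 and 1296. Gm29216, the copy with 6 substitutions, had 837 and 99434.

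Adding each copy to its gene lowered the ratio for mt-Atp6, mt-Co3, mt-Nd4l and mt-Nd3 and raised it for mt-Co2. A sum cannot restore fragments that a pipeline left out of both, and the sources used here do not say how the anterior pipeline treated multiply mapped reads. Summed pairs had ratios of 53.8 for mt-Co2 (95% interval 52.2 to 55.4), 49.8 for mt-Atp6 (48.3 to 51.3), 74.0 for mt-Co3 (71.4 to 76.8), 25.1 for mt-Nd3 (23.6 to 26.6) and 21.4 for mt-Nd4l (19.9 to 22.9). The pairs of mt-Co1 and mt-Nd4 moved little, to 0.977 and 1.62. All 7 copies together held 0.0189% of anterior and 0.493% of posterior fragments. In the posterior library the pair of mt-Co2 and Gm28661 came to 7398 FPKM by annotated length, against 1774 for mt-Co2 alone, and so stood above mt-Co3 (5441 alone, 5932 with Gm28437) and mt-Atp6 (6888 alone, 6903 with Gm10925). The anterior pair of mt-Co2 came to 176 FPKM.

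**Figure D3:**
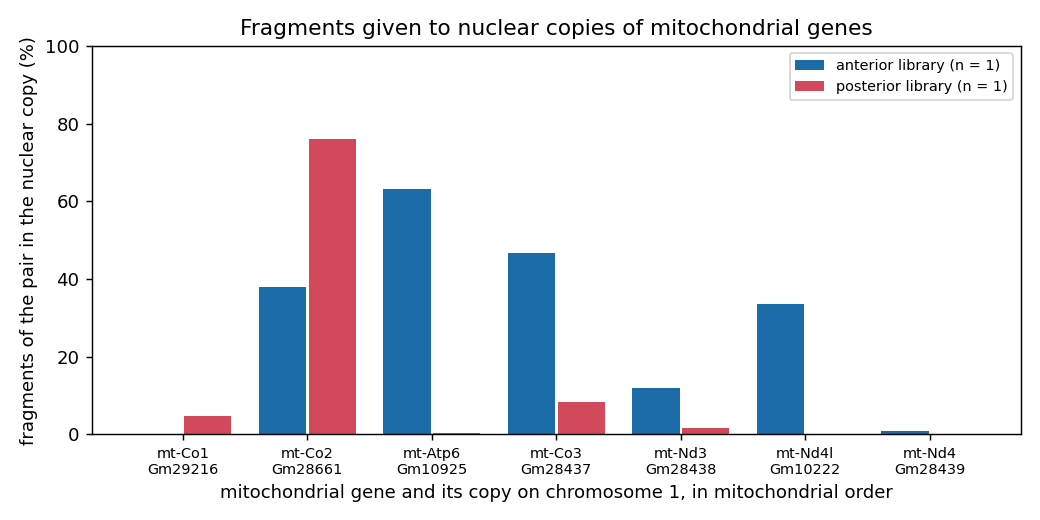
Percentage of the fragments of each pair (mitochondrial gene plus its copy on chromosome 1) that were given to the copy, for 7 pairs in mitochondrial order and 1 library per colour. The copy of mt-Co2 holds 38.0% (anterior) and 76.0% (posterior), and the copy of mt-Atp6 63.2% and 0.224%.

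The order of the levels was compared within each library. Across the 13 messenger RNAs, Spearman's rho between anterior and posterior FPKM was -0.37, and 0.15 with annotated length in the posterior library. These are correlations over genes of a shared genome, given as a description. Across the 5 messenger RNAs outside the copied stretch, namely mt-Nd1, mt-Nd2, mt-Nd5, mt-Nd6 and mt-Cytb, rho was 0.90 and with annotated length 1.00. Among the plus-strand messenger RNAs the highest level was 1188 times the lowest by anterior FPKM, 24.9 times by posterior FPKM and 7.22 times by posterior FPKM with annotated length. The 12 messenger RNAs of that strand begin as parts of long shared precursors.

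The transfer RNAs, which carry amino acids to the mitochondrial ribosome, took 0.231% of the anterior fragments of the 37 genes. Mature transfer RNAs have no poly(A) tail, and those annotated here are at most 75 bases long. In the anterior library they held 4363 fragments in all, 0.0100% of the total, and in the posterior library all 22 were estimated at 0, which allows up to 3 fragments each. Of the 22, 14 had at least 10 anterior fragments. Among 19313 genes of any kind with that many, 3.66% had 0 posterior fragments, and among the 27 such genes outside the mitochondrial genome that are no longer than the longest of these transfer RNAs it was 100.0%. The posterior zeros were thus shared by every gene of that length that had 10 anterior fragments.

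Within the anterior library the transfer RNAs of the minus strand stood higher as a set, but not each of them. The 8 on that strand had between 0 and 1860 fragments with a median of 134, and the 14 on the plus strand between 0 and 113 with a median of 20. The minus-strand genes held 91.1% of all transfer RNA fragments (95% Wilson interval 90.2 to 91.9). Of all transfer RNA fragments, mt-Tp, mt-Tn and mt-Tc alone held 84.4%. On the same strand mt-Ta, mt-Tq and mt-Ts1 had 16, 8 and 0 fragments, below the plus-strand median. The sources used here do not say whether anterior counting used strand or how it treated fragments that reach into neighbouring genes. The part that either plays in this difference was not tested. The 5 with the most fragments all lie on the minus strand, and their sequences are printed with the letters of the anticodon in capitals, followed by the leading pair of the plus strand, both of which carry leucine.
mt-Tp: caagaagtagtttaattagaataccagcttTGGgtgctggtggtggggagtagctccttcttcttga
mt-Tn: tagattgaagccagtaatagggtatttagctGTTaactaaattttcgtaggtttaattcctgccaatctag
mt-Tc: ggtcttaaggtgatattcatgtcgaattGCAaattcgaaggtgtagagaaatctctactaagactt
mt-Te: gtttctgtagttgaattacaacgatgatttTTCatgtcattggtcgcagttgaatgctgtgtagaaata
mt-Ty: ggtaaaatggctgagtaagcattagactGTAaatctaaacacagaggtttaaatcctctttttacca
mt-Tl1: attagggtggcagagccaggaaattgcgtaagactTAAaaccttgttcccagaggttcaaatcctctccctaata
mt-Tl2: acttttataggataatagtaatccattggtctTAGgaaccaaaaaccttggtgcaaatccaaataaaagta

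mt-Tp, the proline transfer RNA (MT, 15356 to 15422), had 1860 fragments, 42.6% of the class, and is the last gene before the noncoding control region. mt-Tn (asparagine, MT, 5089 to 5159) had 977 fragments and mt-Tc (cysteine, MT, 5192 to 5257) had 846. Per annotated length, mt-Tp (760 FPKM), mt-Tn (377 FPKM) and mt-Tc (351 FPKM) had higher values than the 6 messenger RNAs at 10.1 to 109 anterior FPKM. These values do not rank abundance, since the 3 genes are 66 to 71 bases long, shorter than a 150-base read. All of the 6 but mt-Atp8 also have at least 97.0% of windows shared with the nucleus. mt-Tn and mt-Tc flank a gap of 32 bases that holds the origin of light-strand replication. mt-Te (glutamate), next to mt-Nd6, had 138 and mt-Ty (tyrosine), next to mt-Co1, had 129. On the plus strand mt-Tl1, between mt-Rnr2 and mt-Nd1, had 113, and mt-Tl2, before mt-Nd5, had 80. The rest with at least 10 fragments were mt-Th with 54, mt-Tw with 37, mt-Ts2 with 36, mt-Tm with 25, mt-Tg with 23, mt-Tr with 17 and mt-Ta with 16. mt-Tf, mt-Tk, mt-Td and mt-Ts1 had 0 anterior fragments. Of the transfer RNAs inside the stretch copied to chromosome 1, mt-Ts1, mt-Td and mt-Tk were at 0, and mt-Tg and mt-Tr were below 25. Counts as low also occurred outside it: mt-Tf was at 0, mt-Tv and mt-Tt had 1 each, mt-Ti 2, mt-Tq 8 and mt-Ta 16.

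**Figure D4:**
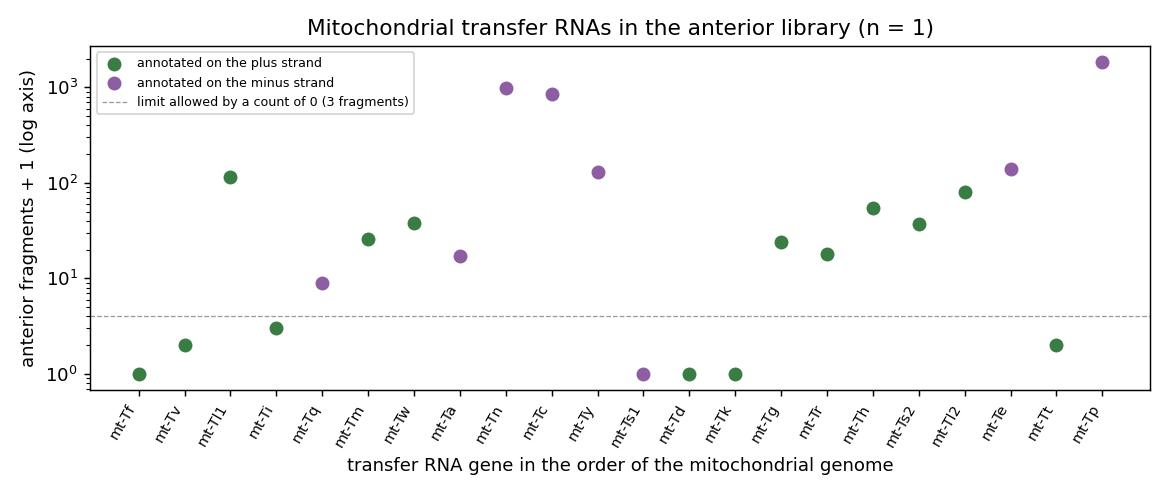
Anterior fragments plus 1 (log axis) of the 22 transfer RNA genes in genome order, coloured by annotated strand, in 1 library; the dashed line marks the 3 fragments that a count of 0 allows. mt-Tp with 1860, mt-Tn with 977 and mt-Tc with 846 fragments are highest and lie on the minus strand; the posterior library had 0 for all 22.

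Genes of the light-strand promoter as a set, mt-Nd6 with the 8 minus-strand transfer RNAs, took 2.43% of the fragments of the 37 genes in the anterior library (95% Wilson interval 2.40 to 2.45) and 0.159% in the posterior library (0.156 to 0.162). Against the messenger RNAs outside the copied stretch alone, mt-Nd6 took 5.01% and 0.582%. In the posterior library mt-Nd6 supplied all fragments of this set, and in the anterior library 41901 of 45875. The lower posterior share, with and without the copied genes, is thus mainly that of mt-Nd6. As stated for that gene, the use of strand in anterior counting is not known. Transfer RNAs alone give no posterior share, since all were at 0. Of all fragments in genes, the messenger RNAs took 3.79% and 4.35%. Within this, the messenger RNAs outside the copied stretch took 1.92% of anterior and 1.33% of posterior fragments, and those lying in it wholly or in part 1.87% and 3.01%.

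The nuclear partners of these subunits were compared by fragment share in the same way. Of 85 measured nuclear genes of the respiratory chain, 3 passed 2-fold towards the posterior library, where 8.44% of all protein-coding genes did, and 2 towards the anterior library, where 1.81% did. Their median log2 ratio was -0.078. By FPKM centred on the median of protein-coding genes it was 34 and 2, where 14.5% and 7.11% of all protein-coding genes passed. The nuclear median for complex I was 48.7 anterior FPKM over 36 genes. The mitochondrial median was 48.4 times the nuclear median among anterior and 39.0 times among posterior FPKM, or 25.5 times by annotated posterior length. These multiples rest on lengths that the 2 files define differently. For complex III the multiple was 94.7 and 29.0 times, or 46.7 times by annotated length. For complex IV it was 1.11 times among anterior and 38.0 times among posterior FPKM, or 43.1 times by annotated length. For complex V, it was 0.579 and 99.9 times, or 44.6 times by annotated length. The anterior medians of complexes IV and V come from mt-Co2, mt-Atp6 and mt-Atp8, which are among the messenger RNAs at 10.1 to 109 anterior FPKM. The 3 posterior genes were Ndufb2 (2.65 and 112 FPKM, a ratio of 3.74), Atp5o (30.5 and 207 FPKM, 2.41) and Ndufb9 (49.98 and 225 FPKM, 2.33). Of the exonic bases of Atp5o, 47.9% lie under other genes, and 49.6% of its words occur in other genes. The 2 anterior genes were Cox5b-ps (42.8 and 0.145 FPKM) and Atp5g2 (34.4 and 22.03 FPKM, 4.64-fold higher), of whose words 74.4% and 40.2% occur in other genes. The symbol of Cox5b-ps marks it as a pseudogene of Cox5b, but its transcript is annotated as protein-coding, so it was counted in the list. Atp5md had 338 and 974 FPKM, the highest posterior level of the list, and a share ratio of 1.01. The highest anterior level was that of Cox8a, at 526 FPKM.

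**Figure D5:**
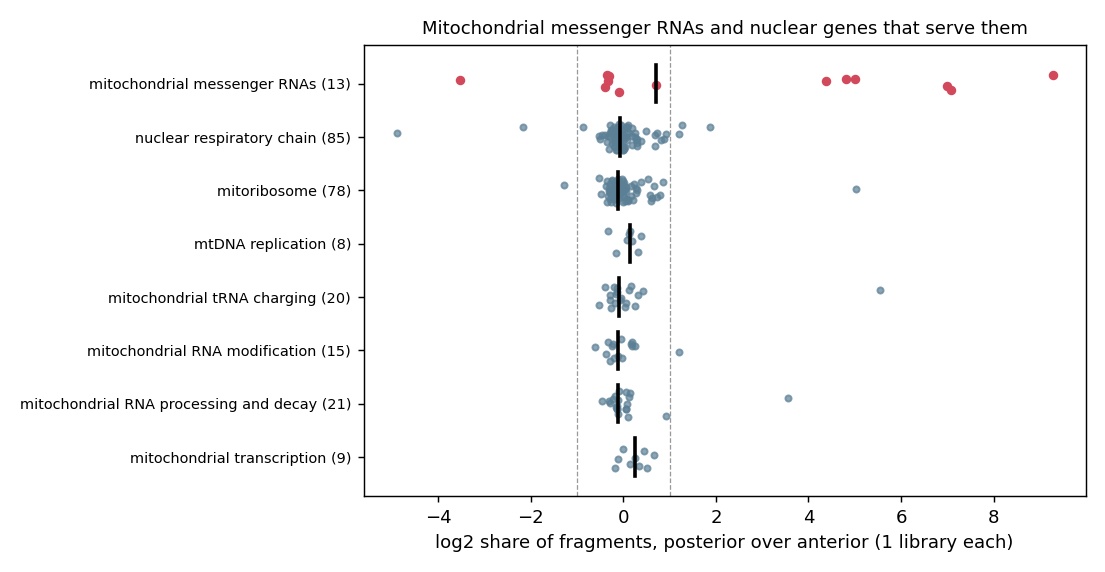
log2 ratio of fragment shares, posterior over anterior, for the 13 mitochondrial messenger RNAs (from fragments) and for 7 lists of nuclear genes (as CPM with a pseudocount of 0.5), each point a gene and each bar the median, with measured genes in brackets and 2-fold marked by dashed lines. The list medians lie between -0.12 and 0.26, and the messenger RNAs range from -3.53 to 9.28.

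Nuclear genes that make, process and use mitochondrial RNA were counted by the same 2-fold rule, which 8.44% of protein-coding genes passed towards the posterior and 1.81% towards the anterior library. In lists of 8 to 21 genes, counts of 0 or 1 are near those shares. None of the 9 genes of mitochondrial transcription passed 2-fold, with a median log2 ratio of 0.26. Tfam, which packages mitochondrial DNA and opens its promoters, had 9.33 and 18.8 FPKM and the lowest ratio of that list at 0.879. Mterf2 had the highest at 1.64. Mterf3, a repressor of mitochondrial transcription, had a share ratio of 1.44 (1.33 to 1.56). It had 4.15 FPKM, below Tfam, in the anterior library and the highest posterior FPKM of the list at 25.4, on lengths defined differently. None of the 8 replication genes passed either (median 0.14), among them Polg, the mitochondrial DNA polymerase, at 1.09, Primpol at 1.34 and Rnaseh1 at 0.783.

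Of 21 genes of RNA processing and decay, 1 passed in the posterior direction (median -0.11). It was Slirp, which stabilises mitochondrial messenger RNAs together with Lrpprc, at 38 and 2090 fragments, and 97.8% of its exonic bases lie under exons of other genes. Grsf1, an RNA granule protein, had 38.4 and 45.9 FPKM and a ratio of 0.929. Trnt1, which adds the CCA end to transfer RNAs, had the lowest ratio at 0.725. Of 15 measured RNA modification genes, 1 passed in the posterior direction, Rpusd3 at 2.60, with 65.2% of its exonic bases under other genes (median -0.12). Gtpbp3, which modifies transfer RNA anticodons, had 0.810 and Mrm1, a ribosomal RNA methyltransferase, 0.645.

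Of 20 genes that charge mitochondrial transfer RNAs, 1 passed in the posterior direction (median -0.10). Lars2, which charges mt-Tl1 and mt-Tl2 with leucine, had 19.6 and 2290 FPKM and a ratio of 46.8 (45.8 to 47.9), but 99.2% of its posterior fragments were given to 1 transcript annotated as subject to nonsense-mediated decay. Its protein-coding transcripts held 9209 of 1168902 fragments. Pars2, which charges mt-Tp with proline, had the lowest ratio at 0.672. Of 78 mitoribosomal protein genes, Mrpl53 (0 and 2008 fragments, at least 213-fold higher if 3 anterior fragments are taken as the floor) passed in the posterior direction. Mrpl23 (759 and 938 fragments, 2.54-fold) passed in the anterior direction, and the median was -0.11. By centred FPKM 21 and 1 of the 78 passed, where 14.5% and 7.11% of all protein-coding genes did. In Mrpl53, 88.0% of exonic bases lie under other genes. Mrps21 had 36.5 and 113 FPKM, the highest posterior level of the list, and a share ratio of 0.991. The highest anterior level was that of Mrpl41, at 42.6 FPKM.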

How the data were processed

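RNA was sequenced in 1 anterior and 1 posterior library (150-base paired-end reads, per the labels' protocols). The deposited anterior table holds FPKM per gene, and the submitters' processing notes name HISAT2 2.0.5 and mm10. The sources used here name no counter for it, nor its use of strand or of multiply mapped reads. The deposited posterior table holds estimated counts and TPM per transcript, made by the authors with Salmon, per the labels' protocols.

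Anterior fragments were recovered as FPKM times gene length over 27.4, which gave whole numbers for 100% of 54532 genes within 0.001. That step implies that the authors scaled FPKM to 36521279 fragments, fewer than the table's sum. Posterior values were summed per gene, and posterior FPKM computed from estimated counts and effective length. Fragment shares replaced FPKM for differences between libraries because the files define length differently. Calls are folds of at least 2, with no test. Intervals are 95% Clopper-Pearson for ratios and 95% Wilson for shares. Words of 31 bases and windows of 150 bases were searched in GENCODE M21 transcripts, on both strands. Member coordinates equalled those of M21 for 37 of 37 genes, and transcript lengths for 98.7% of posterior transcripts. No genome sequence was used here, so nuclear copies were taken from annotated pseudogenes sharing at least 50% of their words with mitochondrial genes. A preset list of symbols for this case was not followed, since it lacked Gm28439 and held Gm29215, which is annotated as a lincRNA on chromosome Y.

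The text names every messenger and ribosomal RNA, transfer RNAs with at least 10 anterior fragments or among the 5 highest, every such copy, and of each list the genes with the highest ratio, lowest ratio and highest FPKM summed over both libraries. Transfer RNAs below 10 anterior fragments, list genes past 2-fold, Cox8a and Mrpl41 were named besides, after their values were seen. Members and lists were chosen with earlier results of these data known. The ratio computation was tested on simulated counts of nuclear protein-coding genes with known folds. That simulation held no shared sequence and no difference in pipeline, so it does not bear on the ratios of the copied genes. Python 3.11.15, pandas 2.3.3, numpy 2.4.6 and scipy 1.17.1 were used.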

Additional observations from a re-analysis of the deposited data

How the results depend on the processing

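The count of messenger RNAs at least 2-fold apart was 7 of 13 by fragment share and also by FPKM with a pseudocount of 0.5 or 0.1, with all fragments or messenger RNA fragments as denominator, after centring, and with the copies added. It was 5 of 11 with overlapping genes summed. By FPKM centred on the median of protein-coding genes, an alternative chosen after seeing the data, it was 8, since mt-Nd5 then passed 2-fold in the anterior direction. That centring shift was 0.63 on the log2 scale. The median log2 ratio of the messenger RNAs moved from 0.71 to 0.053 by centred FPKM, and to -0.10 with overlapping genes summed. None of the 7 changed direction under the alternatives that keep each gene apart. The messenger RNA share of 3.79% became 3.81% with copies added and 3.82% without ribosomal RNA genes in the anterior library, and that of 4.35% became 4.84% and 4.60% in the posterior library. The minus-strand share of 2.43% became 2.54% over messenger RNAs and 5.01% over those outside the copied stretch, and that of 0.159% became 0.179% and 0.582%. Spearman's rho of -0.37 became 0.15 with annotated length and 0.90 over the 5 messenger RNAs outside the copied stretch, the latter set chosen after seeing the data. Over all 7 lists 10 genes passed 2-fold by fragment share, with no filter and at an FPKM of at least 5, but 69 by centred FPKM. Of all protein-coding genes, 8.44% passed towards the posterior and 1.81% towards the anterior library by fragment share. These shares were 7.10% and 1.61% with no filter, 6.11% and 1.15% at an FPKM of at least 5, and 14.5% and 7.11% by centred FPKM. No paired analysis was possible because each position had 1 library. With the copies added, mt-Atp6 at 49.8 stood below mt-Co3 at 74.0 and mt-Co2 at 53.8, so the order of these ratios depends on that choice. Among messenger RNAs, depth limits most the ratio of mt-Atp8, whose anterior value rests on 75 fragments.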
